A study of Mus musculus with 17 samples.

Results

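The Hox cluster genes are the 39 protein-coding genes named Hoxa, Hoxb, Hoxc or Hoxd with a number, chosen by symbol alone, out of 53313 gene identifiers common to all 17 libraries. There were 11 members in the Hoxa cluster on chromosome 6, 10 in the Hoxb cluster on chromosome 11, 9 in the Hoxc cluster on chromosome 15 and 9 in the Hoxd cluster on chromosome 2 of the mouse build GRCm38. RNA was sequenced from 8 cultures of primary tubular epithelial cells (PTEC) and from the kidneys of 9 mice, all wild type C57BL/6Rj by the labels (C57BL/6JRj in the methods, for cultures and kidneys alike). Of the cultures, 4 were non-senescent PTEC, taken on day 6 without irradiation, and 4 were senescent PTEC, irradiated with 10 Gy and taken on day 16, so irradiation and culture time cannot be told apart. The kidneys came from male mice aged 3, 12 and 24 months, 3 of each age, and part of the right kidney was used. PTEC, which the labels call proximal tubular cells, had been grown from sieved tubular fragments of kidneys digested with collagenase. In non-senescent PTEC, the proximal tubule transporter Slc22a6 and the enzyme Miox were at a mean of 0.103 and 0.159 CPM (counts scaled to library size), against 1301 and 1824 CPM in 3-month kidneys, and these were the 2 of 8 proximal tubule markers under 1 CPM in all 4 cultures. The receptor Lrp2 was at 52.0 to 423 CPM and Hnf4a at 64.8 to 104 CPM in non-senescent PTEC, and all 8 markers were below their level in 3-month kidneys.

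Hox genes encode transcription factors that bind DNA through a homeodomain and give cells their position along the body axis. Genes of the same number in different clusters are paralogues. Low numbers lie at the 3′ end of a cluster and act early and towards the head, while high numbers lie at the 5′ end and act late and towards the tail. In the kidney, Hoxa11, Hoxc11 and Hoxd11 are known for the induction of the metanephros together with Eya1 and Six2, and Hoxb7 is known for its expression in the ureteric bud and the collecting duct. Adult organs keep part of this pattern.

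Total counts ranged from 26963442 to 35409144 in PTEC, from 37311247 to 49471409 in 3-month kidneys and from 54097073 to 66894790 in the older kidneys. PTEC, 3-month kidneys and older kidneys had been counted on 3 different gene sets, each of which held all 39 members. The paper's supplement names a single release of the gene annotation. Identifier versions of the members were the same in all 3 sets except for Hoxd4. The summed level of all members lay between 446 and 486 CPM in non-senescent PTEC, between 560 and 692 CPM in senescent PTEC and between 441 and 567 CPM in the kidneys.

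To see which members the cells and the organ used, levels were set per kilobase of exon (CPM per kb), the scale on which different genes can be compared. Cultures and organ were led by different members. In non-senescent PTEC the highest was Hoxb9, at 35.7 ± 2.1 CPM per kb (SD, n = 4), followed by Hoxb7 at 21.3 ± 3.7, Hoxb6 at 16.2 ± 3.3, Hoxb8 at 13.5 ± 1.3 and Hoxc10 at 11.6 ± 1.7 CPM per kb. Hoxb9 lay above Hoxb7 in every culture by more than the spread, whereas each pair of neighbours among the other 4 overlapped. In 3-month kidneys the highest was Hoxd8, at 40.5 ± 1.1 CPM per kb (SD, n = 3), followed by Hoxa7 at 27.7 ± 4.5, Hoxb7 at 19.4 ± 2.8, Hoxa10 at 16.6 ± 2.9 and Hoxb6 at 15.9 ± 5.8 CPM per kb. Hoxd8, Hoxa7 and Hoxb7 were separated from each other in the 3-month kidneys, while the ranges of Hoxb7, Hoxa10 and Hoxb6 overlapped one after the other. Hoxd8 and Hoxa7 also held the first and the second place at 12 months, with 37.7 ± 3.2 and 24.9 ± 5.4 CPM per kb, and at 24 months, with 37.9 ± 4.0 and 28.1 ± 3.6 CPM per kb. Hoxb9 remained first in senescent PTEC, at 47.0 ± 2.2 CPM per kb.

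As shares of the summed CPM per kb of all members, the Hoxb cluster held 56.0 ± 2.1% in non-senescent PTEC and 59.5 ± 3.2% in senescent PTEC (SD, n = 4 each). Its share was 33.1 ± 4.6%, 26.9 ± 3.8% and 27.1 ± 1.8% in kidneys of 3, 12 and 24 months (SD, n = 3 each). The Hoxd cluster held 13.1 ± 0.3% in non-senescent PTEC and 29.7 ± 1.3% in 3-month kidneys. The members at the ends of the clusters were the low ones. Hoxd12 was at 0 counts in every library, and Hoxb1, Hoxc12 and Hoxd1 did not exceed 4 counts in any. Hoxb13, a gene of the posterior body, was at 0 counts in all 9 kidneys and between 2 and 16 counts in the cultures.

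**Figure D1:**
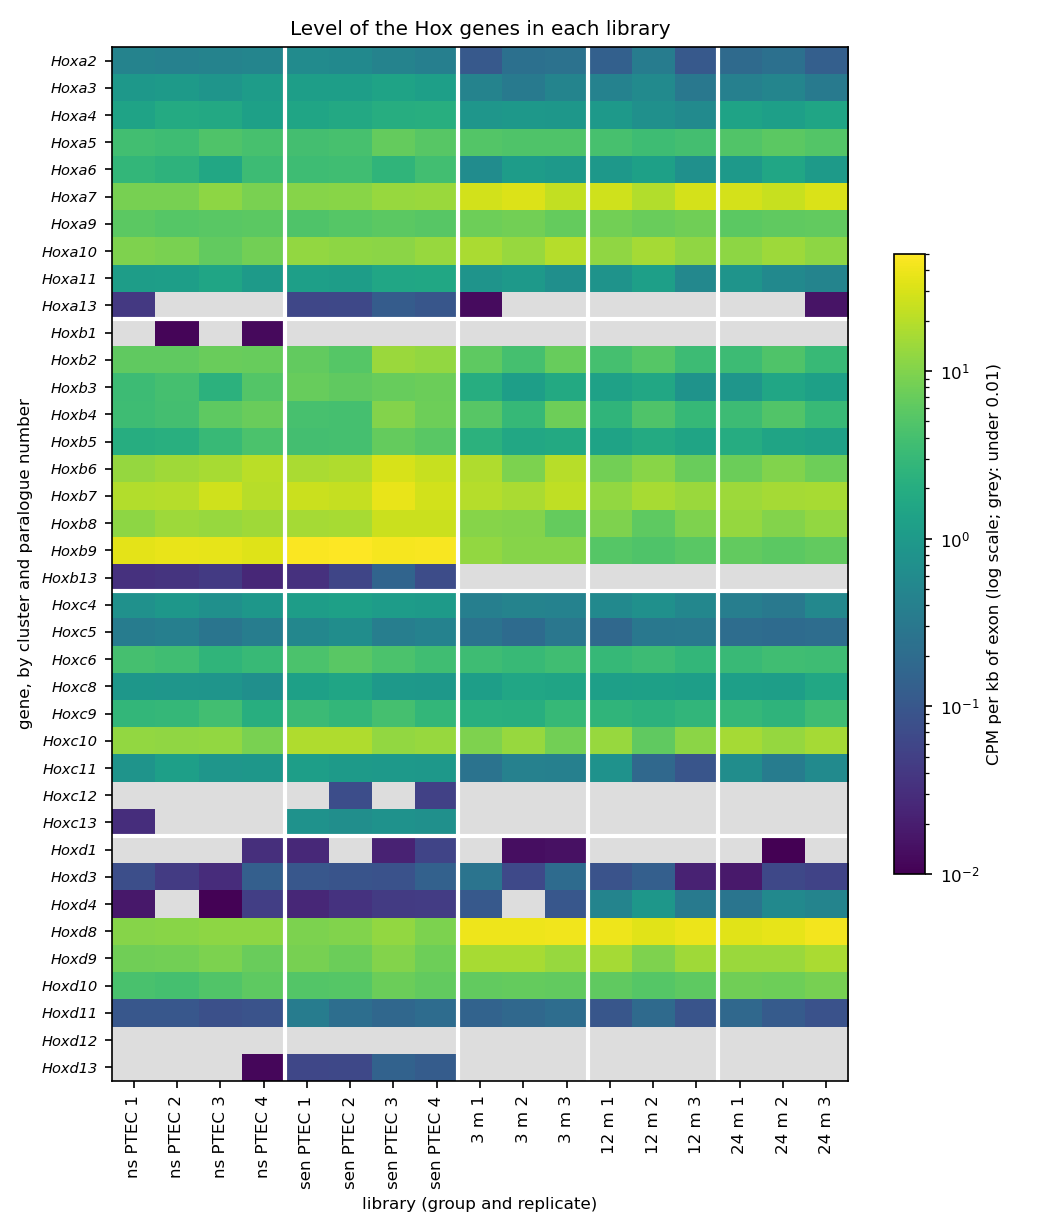
Level of 38 Hox genes (rows, by cluster and paralogue number) in each of the 17 libraries (columns: ns, non-senescent; sen, senescent; 3 m, 12 m and 24 m, kidneys by age in months), as CPM per kb of exon on a logarithmic colour scale, with values under 0.01 in grey. Hoxb9 is brightest in PTEC and Hoxd8 and Hoxa7 in kidneys, and Hoxc13 is coloured in all 4 senescent cultures and near 0 elsewhere.

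The first comparison asked which members differed in senescent PTEC. Of 31 members tested (8 were too low), 6 were called higher and 0 lower, a call being an adjusted p under 0.05 in edgeR's quasi-likelihood test and an absolute log2 fold change above 0.5. Over all 15434 genes tested, 39.8% were called, 20.1% higher and 19.7% lower, so the share of members called higher was near the background. At an unadjusted p under 0.05, 15 members were positive and 0 negative, where 7957 of the 15434 genes passed in either direction. DESeq2 called 8 members higher and 0 lower, and 3506 and 3286 of all genes. The log2 fold change was positive for 28 of the 31 members, with a median of 0.44, beside a median of -0.0020 over all genes. All 8 tested Hoxb genes and all 8 tested Hoxc genes were positive, and none of the 3 negative members, among them Hoxa9 and Hoxd8, was called. The groups did not overlap for 9 of the 31 members, all with senescent PTEC above. Of all genes, 21% were apart with senescent PTEC above and 20.8% with senescent PTEC below. Nothing in the labels says that the cultures came from separate mice, so p-values measure the spread between these cultures.

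Hoxc13, the 5′ end of the Hoxc cluster and known for its part in hair and nail formation, showed the largest difference. The gene lies at chr15:102921103-102928814 (GRCm38, plus strand) and shares no exon sequence with another annotated gene. It was counted 3, 0, 0 and 0 times in the non-senescent cultures and 75, 65, 90 and 67 times in the senescent cultures, and it was at 0 counts in all 9 kidneys. Every senescent culture thus lay far above every non-senescent culture, and the senescent cultures were close together at 1.82 ± 0.11 CPM (SD, n = 4). The ratio of pooled counts, scaled for library size, was 87.9, with an exact 95% interval from 29.8 to 429 that covers counting error only. The adjusted p for Hoxc13 was 6.06e-05 (edgeR). Since the gene passed the filter on low counts only through the senescent cultures, where it was high, this p adds no support to the counts. Without non-senescent culture 1, which held all 3 non-senescent counts, the fitted log2 fold change moved from 6.30 to 9.13, so its size rests on that culture. Of its neighbours, Hoxc12 was too low to be tested, with 0 counts in non-senescent PTEC and at most 3 in senescent PTEC, and Hoxc11 had a log2 fold change of 0.14 ± 0.22 (SE, adjusted p = 0.635).

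The other members of paralogue group 13 were too low to enter the test, and their values are given because they were seen to differ. Hoxa13, a gene of limb and hindgut development, had 4, 0, 0 and 0 counts in non-senescent and 6, 6, 14 and 9 counts in senescent PTEC. Hoxd13, the 5′ end of the Hoxd cluster, had 0, 0, 0 and 1 counts in non-senescent and 6, 6, 17 and 11 counts in senescent PTEC. For both genes all senescent cultures lay above all non-senescent cultures. The ratio of pooled counts was 7.77 for Hoxa13 (exact 95% interval 2.78 to 30.1) and 35.5 for Hoxd13 (6.02 to 1438), again for counting error only. Without the filter on low counts, edgeR gave an adjusted p of 0.0128 for Hoxa13 and 0.0005 for Hoxd13. Hoxb13 had 3, 3, 3 and 2 counts against 3, 5, 16 and 6 counts, so its groups overlapped. These levels are at the lower limit of what the depth can show.

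Hoxd11 (chr2:74679557-74687016, plus strand), one of the genes needed for kidney induction, was at 0.427, 0.418, 0.342 and 0.376 CPM in non-senescent PTEC and at 1.48, 0.904, 0.722 and 0.856 CPM in senescent PTEC. The groups did not overlap, with senescent culture 1 highest. The difference was 2.58-fold, with a log2 fold change of 1.37 ± 0.30 (SE, adjusted p = 0.00483). Hoxa10 (chr6:52231197-52240854, minus strand), a posterior gene known from the reproductive tract, was at 31.4, 29.1, 21.3 and 26.6 CPM against 41.5, 39.0, 37.6 and 44.6 CPM. These groups were apart as well, and Hoxa10 rose 1.54-fold (log2 fold change 0.62 ± 0.14, SE, adjusted p = 0.00607). The remaining members of group 11 were not called, with Hoxa11 at 0.23 ± 0.21 on the log2 scale (SE).

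In the Hoxb cluster, Hoxb3 (chr11:96323326-96347930, plus strand), a gene of the hindbrain and neck region, was at 14.8, 17.3, 10.1 and 21.8 CPM in non-senescent and 29.1, 26.3, 29.7 and 31.2 CPM in senescent PTEC. All senescent cultures lay above, and the rise was 1.86-fold (log2 fold change 0.89 ± 0.21, SE, adjusted p = 0.0081). The antisense transcript Hoxb3os covers 52.9% of the exon sequence of Hoxb3, and the strand setting of the counting is not given in the sources used here, so reads of these genes may be mixed. Hoxb3os itself had a log2 fold change of -1.02 (adjusted p = 0.0747).

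Hoxb8 (chr11:96281905-96285315, plus strand), known from blood and sensory nerve cells, was at 31.0, 37.5, 35 and 38.9 CPM against 42.0, 43.7, 66.4 and 67.6 CPM, and its groups did not overlap. It rose 1.58-fold (log2 fold change 0.66 ± 0.19, SE, adjusted p = 0.0179), but the adjusted p was 0.052 without non-senescent culture 1 and 0.0575 without senescent culture 4. Hoxb5 (chr11:96303336-96306121, plus strand), a gene of the thoracic organs and the enteric nerves, was at 5.68, 6.01, 8.55 and 12.4 CPM against 11.1, 11.5, 18.4 and 15.8 CPM. Here the groups overlapped, since non-senescent culture 4 exceeded senescent cultures 1 and 2, while the senescent culture was higher in all 4 pairs of the same number. Hoxb5 rose 1.77-fold (log2 fold change 0.83 ± 0.29, SE, adjusted p = 0.0398), and its call was lost in 5 of the 8 fits that left out 1 culture, with an adjusted p of up to 0.0948, whereas with the replicate number as a block the adjusted p was 0.0023. Hoxb9, the highest member in PTEC, was at 91.3, 98.3, 92.6 and 84.9 CPM against 124, 128, 115 and 118 CPM. Its groups were clearly apart and the adjusted p was 0.0094, but the 1.35-fold difference stayed under the fold threshold, so it was not called.

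Several Hoxb genes differed among the senescent cultures. Hoxb2 was at 22.4 and 18.6 CPM in senescent cultures 1 and 2 and at 49.0 and 44.4 CPM in cultures 3 and 4, with 21.6 to 24.8 CPM in non-senescent PTEC. The difference for Hoxb2 was 0.57 ± 0.29 on the log2 scale with SE (adjusted p = 0.137). Hoxb4 showed 10.9, 10.5, 26.4 and 19.8 CPM in the senescent cultures, and 9.15, 10.2, 15.4 and 18.3 CPM in the non-senescent ones, so for this gene cultures numbered 3 and 4 were the high ones in both groups. Hoxb6 was likewise higher in cultures 3 and 4 than in 1 and 2 of either group, at 25.6, 28.7, 32.4 and 40.6 CPM against 33, 35.3, 58.2 and 48.3 CPM. Neither Hoxb4 nor Hoxb6 was called. Without senescent culture 2, Hoxb2 was called in addition, and without non-senescent culture 4 the count of called members was 9.

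**Figure D2:**
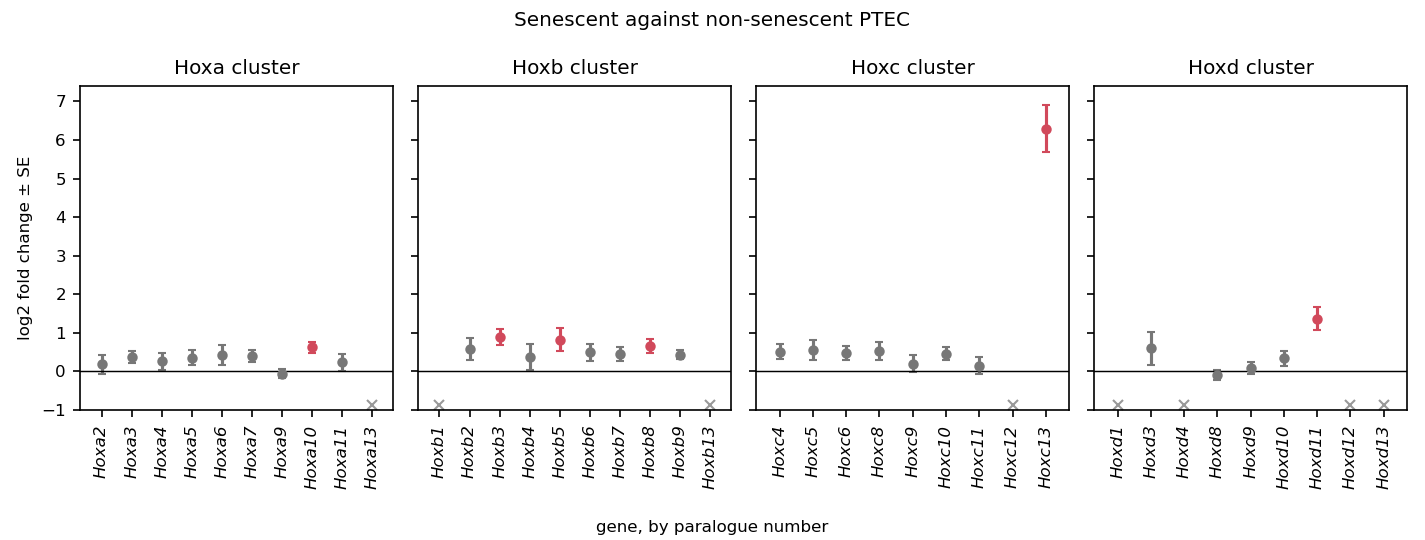
Log2 fold change of senescent against non-senescent PTEC for 38 Hox genes, by cluster and paralogue number, with standard errors as bars (n = 4 per group). Red points were called higher, grey points were not called, and a cross at the lower edge marks a gene too low to be tested. Hoxc13 stands at 6.30, a fitted value that depends on the prior count, and most other points lie between 0 and 1.

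**Figure D3:**
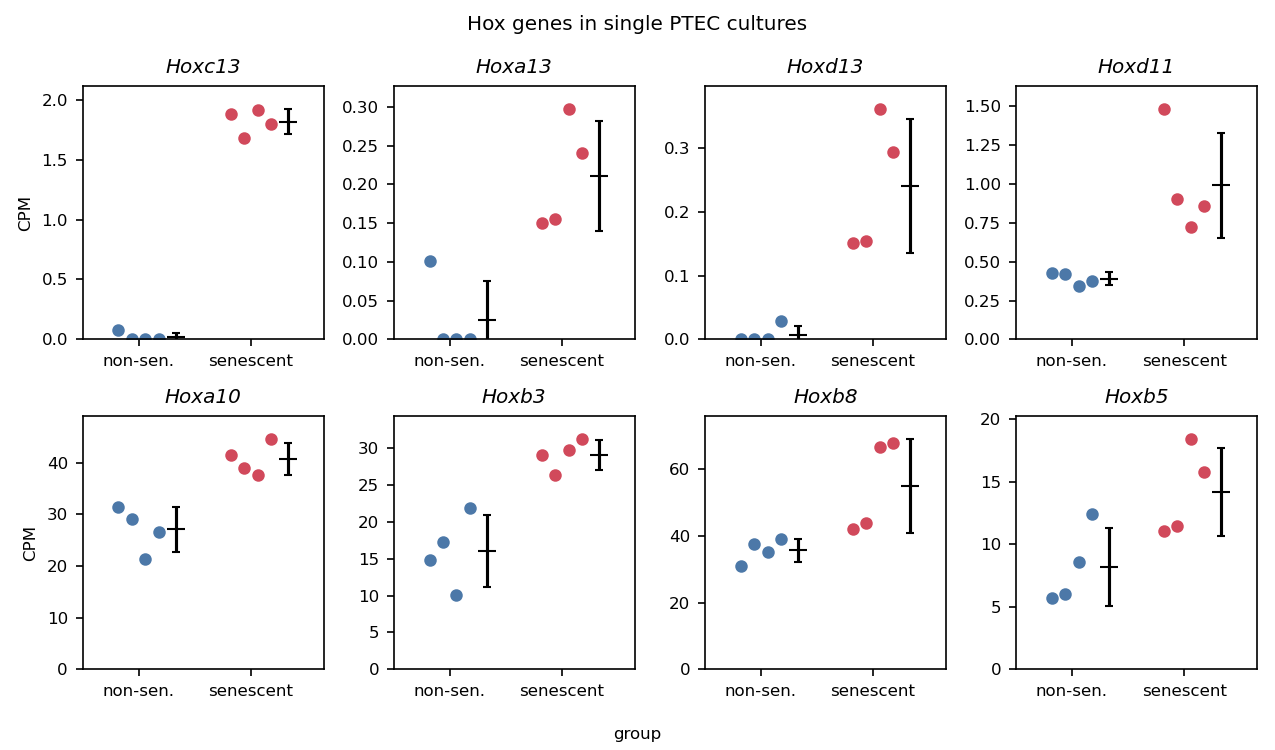
CPM of the 6 called members and of Hoxa13 and Hoxd13 in single cultures of non-senescent (blue) and senescent (red) PTEC, with the mean and SD (n = 4) in black beside the points. The groups overlap for Hoxb5 and are apart for the others.

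The bases before the annotated starts of the called members with an entry in the RefSeq promoter table, and of Hoxd8, the highest member in kidneys, are shown to let the genes called in senescence be compared with one that was not called there. The table (build GRCm38.p6) had entries for 22 of the 39 members, with 24 starts in all, and none for Hoxc13, Hoxb3 and Hoxb5. The 250 bases upstream are printed 5′ to 3′ on the strand of the gene, and capitals mark matches, on either strand, to 6 motifs. The core promoter motifs are the TATA box with the letters TATAAA, the box bound by the nuclear factor NF-Y with the letters CCAAT and the box bound by Sp factors with the letters GGGCGG. The factor motifs are the site of PBX-HOX pairs with the letters TGATTNAT, the core bound by many homeodomains with the letters TAATTA and the E-box with the letters CACGTG.
Hoxd11 first start, chr2:74679308-74679557, + strand: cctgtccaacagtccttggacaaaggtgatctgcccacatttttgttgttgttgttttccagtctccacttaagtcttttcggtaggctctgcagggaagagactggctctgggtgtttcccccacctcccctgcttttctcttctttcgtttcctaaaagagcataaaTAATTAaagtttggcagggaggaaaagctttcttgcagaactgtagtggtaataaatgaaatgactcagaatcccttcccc
Hoxd11 second start, chr2:74682073-74682322, + strand: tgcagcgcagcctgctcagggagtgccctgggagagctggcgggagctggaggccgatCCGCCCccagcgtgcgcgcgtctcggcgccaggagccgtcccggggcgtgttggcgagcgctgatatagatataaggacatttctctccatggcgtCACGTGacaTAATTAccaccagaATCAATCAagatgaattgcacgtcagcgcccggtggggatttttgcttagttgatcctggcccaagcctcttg
Hoxa10 first start, chr6:52240855-52241104, - strand: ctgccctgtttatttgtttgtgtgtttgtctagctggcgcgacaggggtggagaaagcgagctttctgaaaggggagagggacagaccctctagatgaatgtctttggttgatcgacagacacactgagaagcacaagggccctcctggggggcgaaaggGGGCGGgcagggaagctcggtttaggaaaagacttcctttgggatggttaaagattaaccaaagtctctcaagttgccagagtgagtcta
Hoxa10 second start, chr6:52234940-52235189, - strand: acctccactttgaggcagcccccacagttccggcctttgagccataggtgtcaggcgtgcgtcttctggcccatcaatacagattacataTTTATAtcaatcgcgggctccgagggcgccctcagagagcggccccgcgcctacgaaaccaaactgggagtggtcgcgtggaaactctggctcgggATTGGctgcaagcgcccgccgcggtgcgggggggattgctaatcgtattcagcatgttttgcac
Hoxb8, chr11:96281655-96281904, + strand: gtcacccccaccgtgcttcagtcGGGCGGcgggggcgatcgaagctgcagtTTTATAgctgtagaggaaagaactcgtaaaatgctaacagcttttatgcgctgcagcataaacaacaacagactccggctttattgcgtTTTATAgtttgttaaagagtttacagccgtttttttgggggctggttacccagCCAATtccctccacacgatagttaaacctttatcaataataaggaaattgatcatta
Hoxd8, chr2:74704365-74704614, + strand: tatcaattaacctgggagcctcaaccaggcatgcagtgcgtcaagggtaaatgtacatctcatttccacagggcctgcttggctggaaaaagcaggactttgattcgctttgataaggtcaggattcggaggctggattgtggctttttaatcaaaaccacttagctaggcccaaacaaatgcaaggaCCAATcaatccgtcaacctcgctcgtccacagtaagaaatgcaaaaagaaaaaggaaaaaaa

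CCAAT was found upstream of 14 of the 24 Hox starts (58.3%), against 33.8% of 32851 starts in the table. GGGCGG was found at 10 (41.7%, against 32.7%), TATAAA at 4 (16.7%, against 12.4%) and CACGTG at 4 (16.7%, against 6.02%). TAATTA occurred at 2 of the 24 starts, both of them of Hoxd11, against 4.84% of all starts, and TGATTNAT occurred upstream of Hoxd11 and Hoxa2 (8.33%, against 2.82%). The second start of Hoxd11 held the E-box, the homeodomain core and the PBX-HOX site one after the other. The direct repeat of retinoid receptors was found at 0 of the 24 starts and at 0.00913% of all starts. The median GC content was 59.2% for the Hox starts and 52.4% for all. These matches are letters in a window and say nothing of binding.

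Genes that act with or on the Hox clusters were looked at as lists, whose counts stand beside 20.1% of all genes called higher and 19.7% lower. Of 9 cofactors of the PBX, MEIS and PKNOX families, which bind DNA together with Hox proteins, 3 rose and 1 fell in senescence, and the median of the list was 0.63 on the log2 scale. Pknox2 rose by 1.57 ± 0.40 and Meis3 by 0.93 ± 0.18, while Pbx3 fell by 0.69 ± 0.16 on the log2 scale (SE). Of 16 Polycomb genes, which keep Hox clusters silent, 3 rose and 3 fell (median 0.19). Ezh2, the methyltransferase of this system, was at 86.7, 80.9, 64.8 and 51.6 CPM in non-senescent and 16.3, 15.5, 22.4 and 20.5 CPM in senescent PTEC. It fell by 1.89 ± 0.19 on the log2 scale (SE, adjusted p = 7.18e-05), and all senescent cultures lay below. Its partner Suz12 fell by 0.96 ± 0.21 and Cbx2 fell by 0.94 ± 0.23 on the log2 scale, whereas Cbx6 rose by 0.88 ± 0.14 (SE). Of 11 Trithorax and elongation genes, which keep Hox clusters active, 1 rose and 3 fell (median -0.19). Kdm6b, a demethylase that removes the Polycomb mark, rose by 0.79 ± 0.21, and Dpy30 fell by 1.16 ± 0.21 on the log2 scale (SE).

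Of 15 tested retinoic acid genes, 7 rose and 1 fell (median 0.32). Cyp26b1, which degrades retinoic acid, rose by 3.16 ± 0.45, Aldh1a1, which makes it, by 2.56 ± 0.36, and the binding protein Crabp2 by 2.28 ± 0.47, while the second degrading enzyme Cyp26a1 fell by 2.45 ± 0.53 on the log2 scale (SE). Of 5 tested partners and targets of group 11 in kidney development, 2 rose and 0 fell, and Pax2, a regulator of the nephric lineage, rose by 0.67 ± 0.16 on the log2 scale (SE). None of 7 tested non-coding RNAs of the clusters was called by edgeR (0 positive and 1 negative at an unadjusted p under 0.05), and the 3 Cdx genes were too low to be tested.

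Markers of other cells moved with senescence in these bulk cultures, in which fewer cells of a type and less RNA per cell cannot be told apart. Their counts stand beside 20.1% of all genes called higher and 19.7% called lower. Summed over 8 fibroblast and pericyte markers, levels lay between 64.2 and 132 CPM in non-senescent and between 446 and 941 CPM in senescent PTEC, and 5 of 7 tested markers rose. Acta2, the actin of contractile cells, had the largest share, with 353 to 773 CPM in senescent PTEC. Summed over 9 collecting duct markers, levels lay between 152 and 352 CPM in non-senescent and between 96.3 and 172 CPM in senescent PTEC, 5 of 8 tested markers fell, and Aqp2 was at 0 in all 4 senescent cultures. Most of that sum came from Tfcp2l1, a regulator of the collecting duct, at 125 to 288 CPM in non-senescent and 80.3 to 167 CPM in senescent PTEC. The sum of 5 loop of Henle and distal tubule markers was 12.6 to 30.9 CPM against 0.93 to 2.85 CPM, and 3 of 3 tested markers fell. The sum of 5 podocyte markers was 71.9 to 164 CPM against 167 to 359 CPM, and 2 of 4 tested markers rose. Of 5 tested leukocyte markers 2 fell and 0 rose, with a median of -0.70 on the log2 scale. Of 6 tested endothelium markers 1 fell and 0 rose, with a median of -0.60. Of 5 tested proximal tubule markers 3 fell and 0 rose, and the regulator Hnf4a fell by 2.98 ± 0.18 on the log2 scale (SE), while Lrp2 was at 0.17 ± 0.63 (SE, adjusted p = 0.853). The part of these markers in the Hox values was not tested.

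The second question was whether members differed between kidneys of different ages. Hoxb9 was the only member called by edgeR in any of the 3 age comparisons. Hoxb9 (chr11:96271457-96276595, plus strand), a posterior gene known from the thoracic skeleton and the mammary gland, was at 32.0, 27.1 and 27.8 CPM in 3-month kidneys, at 13.8, 12.5 and 14.4 CPM in 12-month kidneys and at 16.7, 14.8 and 16.5 CPM in 24-month kidneys. Every 3-month kidney lay above every older kidney. From 3 to 12 months Hoxb9 fell by 1.12 ± 0.13 on the log2 scale (SE, adjusted p = 0.00539), and between 3 and 24 months it fell by 0.88 ± 0.13 (SE, adjusted p = 0.0133). Between 12 and 24 months the log2 fold change was 0.23 ± 0.13 (SE, adjusted p = 0.433), and that difference was not called.

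In each age comparison 31 members were tested. From 3 to 24 months 0 were called higher and 1 lower, against 1.89% and 0.451% of 17067 genes (2.34% either way). From 3 to 12 months 0 were called higher and 1 lower, against 1.22% and 1.36% of genes (2.58% either way). Between 12 and 24 months 0 members were called in either direction by edgeR, against 0.896% higher and 0.434% lower of all genes (1.33% either way). At an unadjusted p under 0.05, the 24 against 12 month comparison had 3 positive members and 1 negative member, where 2602 of all genes passed, and DESeq2 called 1, Hoxa4, a gene of the neck region. Hoxa4 was at 1.53, 1.15 and 0.952 CPM at 12 months and at 2.23, 1.96 and 2.35 CPM at 24 months, and its adjusted p was 0.111 in edgeR and 0.0334 in DESeq2. At an unadjusted p under 0.05 there were 3 positive and 6 negative members at 24 against 3 months, and 1 positive and 4 negative at 12 against 3 months, where 3106 and 2820 of the 17067 genes passed.

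The call of Hoxb9 at 24 months depended on the kidneys in the fit, while its log2 fold change stayed between -0.93 and -0.80 in every fit made. With the replicate number as a block, though the numbers do not pair these ages, its adjusted p was 0.0547, and without 3-month kidney 1 it was 0.0823. It was 0.0527, 0.051 and 0.0538 without 24-month kidneys 1, 2 and 3. The call was kept without 3-month kidney 2 or 3 (adjusted p = 0.0164 and 0.0381), with no filter on low counts (0.0225), with the compared ages alone (0.0359), with identifiers of the same version (0.0176) and in DESeq2 (4.98e-08). The call at 12 months was kept in each of these kinds of fit, with a replicate block p of 0.0307 (adjusted) and an adjusted p of at most 0.0378 when 1 kidney was left out. The 3-month kidneys had been counted on another gene set than the older ones, so that age and gene set cannot be told apart, but the version of the Hoxb9 identifier was the same in both.

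Taken as a whole, Hoxb9 included, the Hoxb cluster lay in the same direction in most cases. Of all 31 tested members, 21 were negative at 12 against 3 months and 21 at 24 against 3 months. Outside the Hoxb cluster, 4 of 10 Hoxa, 4 of 7 Hoxc and 5 of 6 Hoxd genes were negative at 12 months. At 24 months these were 6 of 10, 4 of 7 and 4 of 6. A difference between clusters was not tested. At 12 against 3 months all 8 tested Hoxb genes were negative, with a median of -0.44, and at 24 against 3 months 7 of 8 were negative, with a median of -0.48, beside medians of 0.0044 and 0.0007 over all genes. Hoxb6 was at 36.1, 18.3 and 39.3 CPM at 3 months, at 15.8, 21.6 and 14.2 CPM at 12 months and at 14.4, 19.7 and 14.9 CPM at 24 months. 3-month kidney 2 fell within the range of the older kidneys and the other two lay above it. The log2 fold change of Hoxb6 was -0.88 ± 0.30 at 12 months and -0.96 ± 0.30 at 24 months (SE, adjusted p = 0.171 and 0.145). Without 3-month kidney 2 it was called lower at both ages, with adjusted p of 0.0271 and 0.0252. Hoxb7, the marker of the ureteric bud lineage, was at 29.6, 25.8 and 34.4 CPM at 3 months and between 19.4 and 25.5 CPM in all older kidneys, so that its groups did not overlap, against 8.88% and 9.15% of all genes with 3-month kidneys above at 12 and 24 months, and it was not called (adjusted p = 0.185 and 0.298). Hoxb8 was the exception, at 24.2 ± 5.7, 22.2 ± 5.3 and 31.7 ± 3.7 CPM in the 3 ages (SD, n = 3 each).

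The summed level of 9 collecting duct markers was 1526, 1177 and 1291 CPM at 3 months, 802, 477 and 833 CPM at 12 months and 911, 693 and 961 CPM at 24 months, so that every 3-month kidney was above every older kidney. The water channel Aqp2 made up much of this, at 749, 295 and 691 CPM at 3 months, 130, 130 and 129 CPM at 12 months and 363, 201 and 311 CPM at 24 months. Tfcp2l1 overlapped between the ages, at 143, 276 and 89.1 CPM at 3 months and 88.2 to 275 CPM in the older kidneys. Of the 9 markers, 2 fell from 3 to 12 months and 1 from 3 to 24 months. Over all genes, 1.36% were called lower and 1.22% higher from 3 to 12 months, and 0.451% lower and 1.89% higher from 3 to 24 months. Aqp2 fell by 2.18 ± 0.35 at 12 months, and the vasopressin receptor Avpr2 fell by 1.59 ± 0.26 at 12 and by 1.4 ± 0.26 at 24 months on the log2 scale (SE). Other markers differed with age as well. Of 8 leukocyte markers 2 rose by 24 months, with sums of 88.0 to 142 CPM at 3 and 148 to 206 CPM at 24 months, and 1 rose by 12 months. Of 8 proximal tubule markers 2 rose by 24 months. The sum of 8 fibroblast and pericyte markers was 191 to 208 CPM at 3 and 271 to 335 CPM at 24 months, with 0 called by edgeR and 3 positive and 0 negative at an unadjusted p under 0.05. The part of these cell types in the Hoxb values was not tested.

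The highest members of the kidney were not called at any age. Hoxd8 was at 111 ± 3.1, 103 ± 8.9 and 104 ± 11 CPM at 3, 12 and 24 months (SD, n = 3 each), and its log2 fold changes from 3 months were -0.12 ± 0.13 in both older groups (SE). Hoxa7 was at 79.8 ± 13, 71.7 ± 15.7 and 80.9 ± 10.4 CPM. Their ranges overlapped between all ages.

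Hoxd4, a gene of the neck region, was at 0.32, 0 and 0.301 CPM at 3 months, at 1.38, 2.67 and 1 CPM at 12 months and at 0.814, 1.70 and 1.37 CPM at 24 months. All older kidneys lay above all 3-month kidneys, with log2 fold changes of 3.03 ± 0.79 and 2.64 ± 0.79 (SE). It was not called by edgeR (adjusted p = 0.0844 and 0.132) and was called higher by DESeq2 (adjusted p = 0.0012 and 0.0084). Hoxd4 shares 52.3% of its exon sequence with genes on the same strand, Hoxd3 among them, and its identifier has version 7 in the 3-month set and version 8 in the older set. Hoxd3, its neighbour, was at 1.12, 0.279 and 0.822 CPM at 3 months and at no more than 0.546 CPM in any older kidney. When the counts of both genes were summed, a choice made after seeing the data, the log2 fold changes were 1.09 and 0.63 with adjusted p of 0.433 and 0.543.

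**Figure D4:**
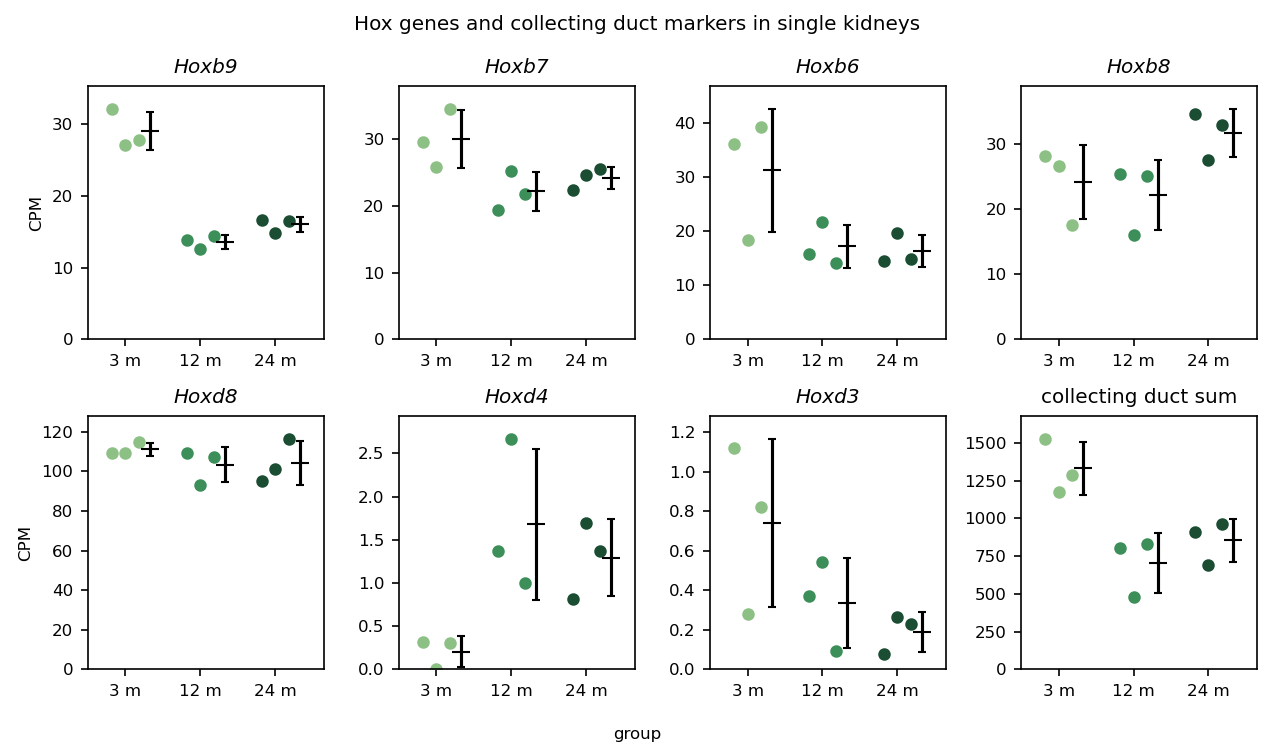
CPM of 7 Hox genes and the summed CPM of 9 collecting duct markers in single kidneys of 3, 12 and 24 months (light to dark green), with the mean and SD (n = 3) in black. Hoxb9 and the collecting duct sum are higher in each 3-month kidney than in any older kidney, and Hoxd8 overlaps between ages.

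Among the lists of genes that act with or on the clusters, 3 of 15 retinoic acid genes were called higher and 0 lower at 24 against 3 months, beside 1.89% higher and 0.451% lower of all genes. A difference between the lists was not tested. Stra6, which takes up vitamin A bound to its carrier, rose by 3.37 ± 0.60, Aldh1a2 by 1.70 ± 0.31 and Aldh1a1 by 1.45 ± 0.30 on the log2 scale (SE, adjusted p = 0.0242, 0.0288 and 0.0437). Aldh1a1 was at 17.7, 10.5 and 23.1 CPM at 3 months and at 50.7, 42.2 and 50.4 CPM at 24 months, with no overlap. None of the 9 cofactors, 16 Polycomb genes and 11 Trithorax genes was called by edgeR in any age comparison. At an unadjusted p under 0.05, 2 cofactors were positive at 24 and 2 at 12 against 3 months, 1 Polycomb gene was positive and 1 negative at 12 months, and 1 Trithorax gene was positive at 24 months.

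The third comparison set non-senescent PTEC against 3-month kidneys to describe how the Hox pattern of cultured tubular cells differed from that of the young organ. Material and gene set cannot be told apart here, and both groups also entered the comparisons above. The sequencing run of each library is not given in the sources used here. Of 30 members tested, 10 were called higher and 6 lower in PTEC, against 33% higher and 32.6% lower of 16190 genes (65.6% either way), so both shares were near the background or under it. By cluster, Hoxa had 5 higher and 2 lower of 10 and Hoxc 2 higher and 1 lower of 7. In the Hoxd cluster 0 of 5 tested members were called higher and 3 lower, and all 5 were negative with a median log2 fold change of -0.91. In the Hoxb cluster 3 of 8 were called higher and 0 lower. A difference between clusters was not tested. By position, 4 of 6 tested members of groups 1 to 3 were called higher and 0 lower, with a median of 1.24. Groups 4 to 8 had 4 higher and 3 lower of 14, with a median of 0.12, and groups 9 to 13 had 2 higher and 3 lower of 10, with a median of -0.083. The median over all genes was 0.054, and a difference by position was not tested.

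Hoxb9 was at 91.3, 98.3, 92.6 and 84.9 CPM in PTEC and at 32.0, 27.1 and 27.8 CPM in 3-month kidneys. Every culture lay above every kidney, and the difference was 3.26-fold, with a log2 fold change of 1.71 ± 0.20 (SE, adjusted p = 2.68e-05).

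In the other direction, Hoxd8 (chr2:74704615-74707933, plus strand) was at 28.7, 30.3, 32.7 and 32.8 CPM in PTEC and at 109, 110 and 115 CPM in 3-month kidneys. It fell by 1.80 ± 0.19 on the log2 scale, or 3.47-fold (SE, adjusted p = 9.80e-06). Hoxa7 was at 25.0, 24.9, 33.5 and 25.7 CPM against 80.5, 92.3 and 66.4 CPM, and it fell by 1.51 ± 0.21 on the log2 scale (SE, adjusted p = 9.03e-05). For both genes every culture lay far below every kidney. Hoxd9 fell by 0.88 ± 0.20 and Hoxa10 fell by 0.96 ± 0.23 on the log2 scale (SE).

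Among the further members, Hoxa6 rose by 1.57 ± 0.38, Hoxc11 by 1.44 ± 0.35, Hoxa3 by 1.29 ± 0.28, Hoxa2 by 1.25 ± 0.39, Hoxb3 by 1.23 ± 0.31 and Hoxc4 by 0.97 ± 0.31 on the log2 scale (SE). Hoxc11 is the only gene of group 11 that was called higher. The calls of Hoxa2 and Hoxc4 were lost without 3-month kidney 1 (adjusted p = 0.09997 and 0.0828). Hoxa4 and Hoxb8 were also called higher, and Hoxd11 and Hoxc8 were called lower, but these 4 calls were lost with no filter on low counts (adjusted p = 0.0895, 0.0692, 0.122 and 0.117). Hoxb4, Hoxb6 and Hoxc6 were closest to equal, with log2 fold changes of -0.01 ± 0.34, 0.07 ± 0.29 and 0.0009 ± 0.25 (SE). Hoxa3, Hoxa4, Hoxa7 and Hoxb3 share from 16% to 52.9% of their exon sequence with genes on the opposite strand.

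**Figure D5:**
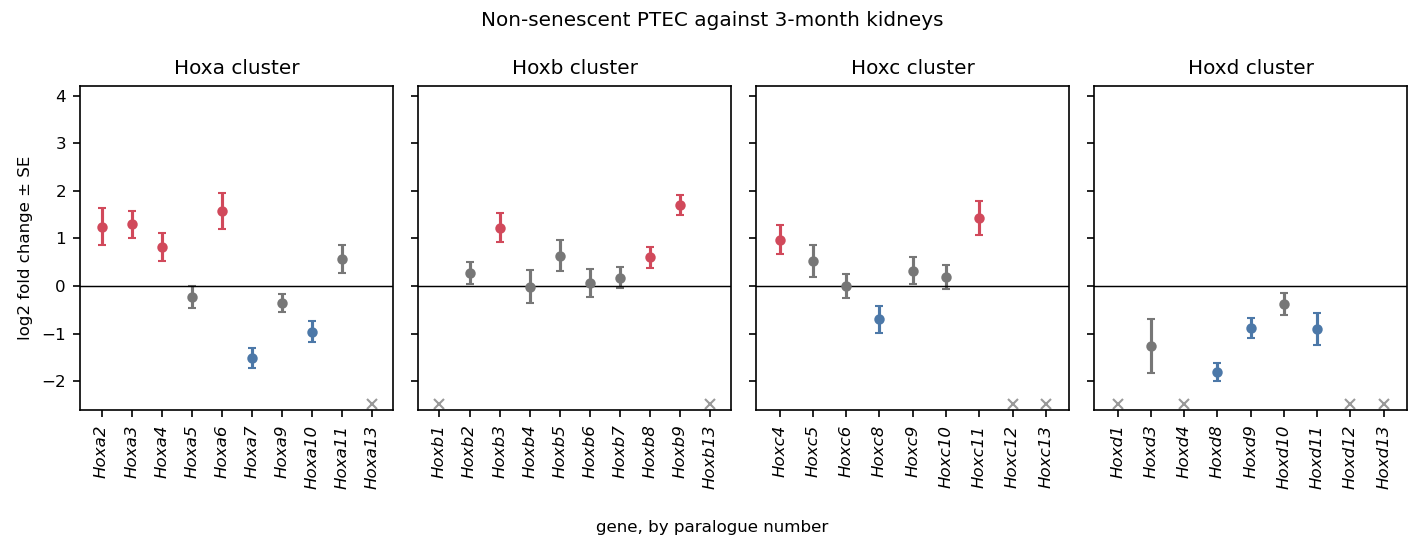
Log2 fold change of non-senescent PTEC against 3-month kidneys for 38 Hox genes, by cluster and paralogue number, with standard errors as bars (n = 4 and 3). Red points were called higher, blue points lower, grey points were not called, and a cross at the lower edge marks a gene too low to be tested. All 5 tested Hoxd genes lie below 0, and Hoxb9 stands at 1.71.

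Of 6 tested antisense and non-coding transcripts of the clusters, 4 were called lower in culture and 0 higher, beside 32.6% and 33% of all genes. Hoxb5os was at 0.603, 0.392, 1.24 and 1.07 CPM in PTEC and at 22.0, 11.6 and 35.1 CPM in 3-month kidneys. It fell by 4.76 ± 0.47 on the log2 scale (SE, adjusted p = 6.15e-06), with no overlap, while its neighbour Hoxb5 had a log2 fold change of 0.63 ± 0.32 (SE, adjusted p = 0.104). Hoxb3os fell by 2.71 ± 0.32, Hoxd3os1 fell by 2.08 ± 0.33 and Hotairm1 fell by 1.30 ± 0.35 on the log2 scale (SE).

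Of the genes around the clusters, to be read beside 33% of all genes called higher and 32.6% lower, 5 of 9 cofactors were higher and 0 lower in PTEC, led by Pbx4 at 2.99 ± 0.43 and Meis3 at 2.60 ± 0.32 on the log2 scale (SE). Of 16 Polycomb genes 7 were higher and 4 lower, with Ezh2 up by 3.79 ± 0.28, and of 11 Trithorax and elongation genes 9 were higher and 0 lower, with Dot1l up by 2.15 ± 0.25 (SE). Of 14 tested retinoic acid genes 5 were higher and 4 lower, and Aldh1a2 was highest at 5.51 ± 0.36 (SE). Of 4 tested partners and targets of group 11, Gdnf was higher by 4.98 ± 0.54 and Itga8 lower, at -3.50 ± 0.38 (SE). Markers of kidney cell types were mostly lower in PTEC. Of the tubule segments, 8 of 8 proximal tubule, 8 of 9 collecting duct and 4 of 5 loop of Henle and distal tubule markers were called lower and 0 higher. Of other cells, 6 of 6 tested leukocyte, 6 of 8 fibroblast and pericyte and 4 of 6 endothelium markers were called lower and 0 higher, and 3 of 5 podocyte markers lower and 1 higher. Their part in the Hox differences was not tested.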

How the data were processed

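RNA of 8 PTEC cultures and 9 mouse kidneys had been sequenced by the authors as stranded, paired-end poly(A) libraries and processed with nf-core/rnaseq 1.4.2 on GRCm38, the build in the submitters' processing notes. The aligner, the counter and its strand setting are not given in the sources used here. The authors deposited raw counts per gene, 1 file per sample, without normalization. The counts were analysed with edgeR 4.0.16 and limma 3.58.1 under R 4.3.3. DESeq2 1.42.0 served as an alternative, and Python 3.11.15 with matplotlib 3.10.9 drew the figures. Identifiers were matched without their version, and symbols, positions and exon lengths came from GENCODE release M 21 (GRCm38).

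After filterByExpr and TMM scaling, the quasi-likelihood test of edgeR (robust) was run over all genes and adjusted by Benjamini-Hochberg. Adjusted p-values are from edgeR unless DESeq2 is named. PTEC were fitted apart, the 9 kidneys together, and non-senescent PTEC with 3-month kidneys. Levels are CPM scaled with TMM over all 17 libraries. The script was tested on simulated data. Replicate libraries differed by far more than sampling noise, with a chi-square per gene of at least 15.8 over 21 pairs.

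Members described one by one were those called in a comparison (at most 12, by adjusted p) and the 5 highest per kb in non-senescent PTEC and in 3-month kidneys, and from each list up to 4 called genes of the largest change. Hoxa13, Hoxd13 and Hoxb13, Hoxb2, Hoxb4, Hoxb6 and Hoxb9 in senescence, and Hoxb6, Hoxb7, Hoxb8, Hoxa4, Hoxd3 and Hoxd4 with age were added after their values were seen. The members, lists and tests were chosen with earlier results of these data known. Same-numbered PTEC of the 2 groups correlated in their deviations from the group means with r from 0.186 to 0.614 over 4 pairs. The numbers were therefore taken as pairs in the replicate block only, and the main fit was unpaired. Among kidneys r was from 0.172 to 0.557 between 12 and 24 months and negative with 3 months. The best match of 12-month kidney 3 was 24-month kidney 1. Since each kidney came from another mouse, the numbers do not make pairs among kidneys. Alternatives were DESeq2, its size factors, no filter, a log2 threshold of 1, a replicate block, other sets of kidneys and identifiers, and leaving out each replicate. Results of some genes are not reported here, while counts and medians cover all members and list genes.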

Additional observations from a re-analysis of the deposited data

Results flagged for a closer look

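Of 62 groups of 4 PTEC cultures, 5 held a culture far from the others, where chance gives about 1 in 20. Hoxa7 was at 33.5 CPM and Hoxb7 at 41.5 CPM in non-senescent culture 3, against 24.9 to 25.7 and 29.1 to 31.2 CPM in the other cultures of that group. Hoxc10 was at 17.3 CPM in non-senescent culture 4, against 23.2 to 24.0 CPM. Hoxa3 was at 8.37 CPM in senescent culture 3, against 7.03 to 7.25 CPM. Hoxc13 was at 0.0754 CPM in non-senescent culture 1, which is 3 counts, and at 0 in the others.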

How the results depend on the processing

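With a log2 threshold of 1, 2 members were called higher in senescent PTEC (Hoxc13 and Hoxd11) and 0 lower at 24 against 3 months. In non-senescent PTEC against 3-month kidneys 2 were called lower (Hoxa7 and Hoxd8). Hoxa2, Hoxa3, Hoxa6, Hoxb3, Hoxb9 and Hoxc11 were among those still called higher there. DESeq2 called 1 member higher at 24 against 3 months and 1 at 12 against 3 months (Hoxd4 in both), and 1 at 24 against 12 months (Hoxa4). Over all genes at 24 against 3 months, DESeq2 called 727 higher and 308 lower, where edgeR called 322 and 77. The cause of these differences was not tested. With the replicate block 0 members were lower at 24 against 3 months, and it changed no other count, with the same 6 members called in senescence. No paired fit was made of PTEC against kidneys, which share only numbers. Among the members followed through all alternatives no direction was reversed. Over all tested members, the fit with no filter changed the sign of Hoxa7 at 24 against 3 months (-0.0033 to 0.0011) and of Hoxb5 (0.0032 to -0.0052) and Hoxd8 (0.0050 to -0.0082) at 24 against 12 months, none of them called. Leaving out 1 replicate gave 4 to 9 members higher in senescence, 0 to 2 lower at 24 months, 1 to 2 lower at 12 months, and 6 to 9 higher and 4 to 6 lower in PTEC against 3-month kidneys, where 6 was the count without 3-month kidney 1. Depth limits the members of group 13, whose counts did not pass 17 in any library except for Hoxc13.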
